A study of Mus musculus with 12 samples.

Results

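The genes described here encode the respiratory chain and the ATP synthase. They were taken as the protein-coding genes whose symbols begin with Nduf, Cox4 to Cox8, Uqcr or Atp5, together with Sdha, Sdhb, Sdhc, Sdhd and the mitochondrial genes whose symbols begin with mt-Nd, mt-Co, mt-Atp or mt-Cyt. There were 105 such members among the 27592 genes of the male tables and the same 105 among the 26048 genes of the female tables. The mitochondrial genome encodes 13 of them and the nuclear genome 92. Of the nuclear members, 37 are complex I subunits, 8 are complex I assembly factors (Ndufaf1 to Ndufaf8), 4 form complex II, 8 belong to complex III, 18 to complex IV, where Ndufa4 and Ndufa4l2 are counted, and 17 to complex V. After genes with low values were left out, 103 members were tested in each sex, because the complex IV paralogs Cox6a2 and Cox7b2 were below the minimum.

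Complexes I, III and IV pass electrons from NADH to oxygen and pump protons across the inner mitochondrial membrane, complex II feeds in electrons from succinate without pumping, and complex V, the ATP synthase, uses the returning protons to make ATP. Every complex except II is assembled from subunits of both genomes, so the nuclear and the mitochondrial transcripts are made by different polymerases and meet only as proteins. In the kidney, the proximal tubule and the thick ascending limb are rich in mitochondria and depend on oxidative phosphorylation for salt and solute transport, whereas glomerular cells hold fewer mitochondria.

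RNA-seq was made on glomeruli isolated from mice aged 3.5 months by the sample labels, and the sources differ on the age. The 4 groups were male C57BL/6J wild type (mWT), male Col4a5-/- mice of the strain B6.Cg-Col4a5tm1Yseg/J, a model of X-linked Alport syndrome (mAS), female C57BL/6J wild type (fWT) and female heterozygous Col4a5+/- mice of the same B6.Cg-Col4a5tm1Yseg/J strain (fASht). No group received a treatment. Each group has 3 listed samples, but fWT replicate 3 repeats the values of fWT replicate 1 and was counted once, so 11 distinct libraries remained, 3 mWT, 3 mAS, 2 fWT and 3 fASht. In females the column headers carry a run name that is different for fWT and for fASht, so run and genotype cannot be told apart there. The study describes glomeruli isolated mouse by mouse and counts its male groups in mice, but the labels tie no library to a mouse, and p-values measure the spread between these libraries.

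Values are gene counts that had been scaled by TMM, with column totals of 14242206 to 23182937 in males and 16941020 to 20152078 in females. Col4a5 itself was lower in mAS than in mWT by 1.15 on the log2 scale (limma, adjusted p = 0.00609). In females it measured 2329 and 1752 in fWT and 1187, 1210 and 1330 in fASht, without overlap, and did not pass the test (log2 fold change -0.69, adjusted p = 0.0684). All 15 podocyte markers and all 12 glomerular endothelial markers were present in every library, and so were all 22 proximal tubule markers, which had a summed level of 367946 to 618470 in mWT and of 61947 to 141479 in mAS. In fWT that sum was 190894 and 362012, and in fASht it was 205713 to 272435. The preparations therefore held tubular RNA in addition to glomerular RNA, to a different extent between the male groups, and its part in the results on the respiratory chain was not tested. In bulk RNA, fewer cells of a type and less RNA per cell cannot be told apart.

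The 2 genomes contributed very different amounts of RNA. Per kilobase of mature transcript and averaged over the 11 libraries, the 13 mitochondrial mRNAs lay between 50320 for mt-Nd4l and 581350 for mt-Co1, the catalytic subunit of complex IV, with a median of 208840. The 91 nuclear members with an annotated length had a median of 1469 per kilobase and reached 12803 for Atp5b, the catalytic beta subunit of the ATP synthase. The lowest mitochondrial mRNA was thus above the highest nuclear one. After Atp5b, the highest nuclear levels per kilobase were those of Atp5a1 (7662), the other subunit of the catalytic head, and of Cox4i1 (7147), a complex IV subunit.

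As a share of the library total, the 13 mitochondrial mRNAs took 29.0%, 14.2% and 21.2% in mWT replicates 1, 2 and 3, and 13.9%, 8.44% and 12.2% in mAS. They took 10.4% and 17.4% in the 2 fWT libraries and 13.4%, 13.04% and 14.1% in fASht. Every mAS library was below every mWT library, while the 3 fASht shares lay between the 2 fWT shares. The nuclear members took 0.932%, 1.10% and 1.26% of the total in mWT, 1.00%, 0.724% and 0.820% in mAS, 0.721% and 0.986% in fWT, and 1.16%, 1.15% and 1.26% in fASht. These shares overlapped between the male groups, and all 3 fASht libraries were above both fWT libraries. Of the total without genes on the mitochondrial genome, the nuclear members took 1.29% to 1.61% in mWT and 0.793% to 1.17% in mAS, without overlap. In females that share was 0.809% and 1.21% in fWT and 1.33% to 1.48% in fASht. The summed mitochondrial value was 31.1, 12.9 and 16.9 times the nuclear sum in mWT, 13.8, 11.7 and 14.8 times in mAS, 14.4 and 17.7 times in fWT, and 11.6, 11.3 and 11.2 times in fASht. The mWT replicate 1 library stood apart with the highest mitochondrial share of all 11.

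**Figure D1:**
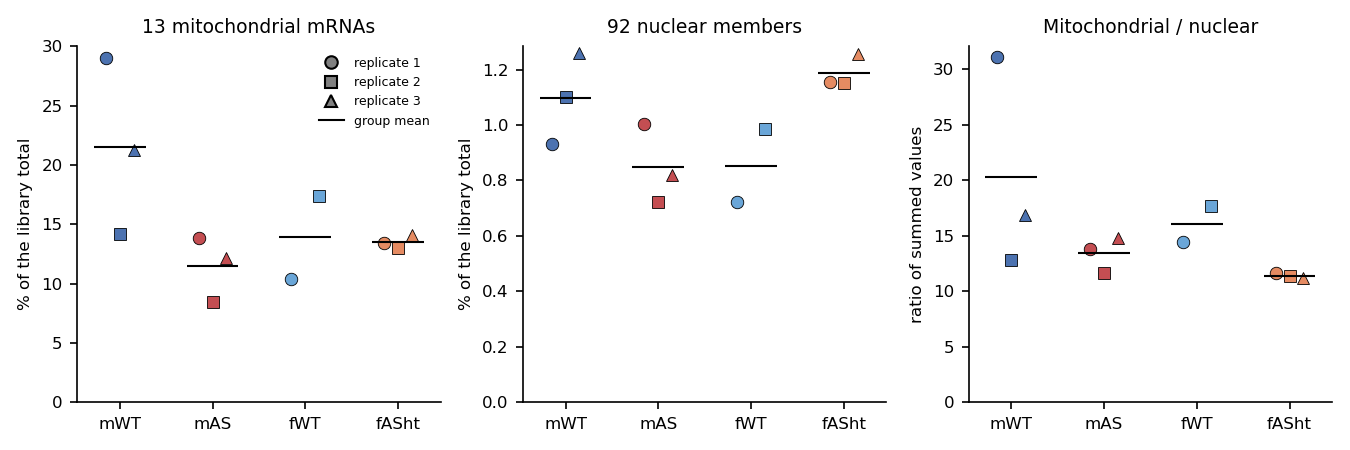
Share of each library's total taken by the 13 mitochondrial mRNAs (left, %) and by the 92 nuclear members (middle, %), and the ratio of these sums (right), by group. Points are libraries and lines are group means; the mitochondrial share of mWT runs from 14.2% to 29.0% and that of mAS from 8.44% to 13.9%.

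The comparison of the male groups asks how the glomerular RNA differs in Alport syndrome. In mAS versus mWT, 48 of 103 members (46.6%) were downregulated and 0 upregulated at an adjusted p under 0.05 (limma on log2 values, Benjamini-Hochberg over 15881 genes), and 70 had an unadjusted p under 0.05. Of all genes tested, 18.9% were lower and 16.6% higher by the same rule, and 7661 of the 15881 had an unadjusted p under 0.05. The median log2 fold change was -0.68 over the members and 0.00 over all genes. The mAS values lay below all mWT values for 65 members (63.1%) and above them for 0, against 27.2% and 26% of all genes. The count of downregulated members was 18 without mWT replicate 1, 18 without mWT replicate 3, 24 without mAS replicate 2 and 18 without mAS replicate 3, where 10.1%, 9.09%, 11.4% and 9.66% of all genes were lower. It was 63 and 53 without mWT replicate 2 and mAS replicate 1, beside 19.4% of all genes in each case. Scaling every library to the same total left 11 members lower and made 2 higher (Atp5e and Ndufa4l2), beside 8.94% and 33.3% of all genes, and that scaling moved the median of all genes by 0.35 on the log2 scale.

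Downregulated nuclear members were found in every complex. Of the 90 nuclear members tested, 47 (52.2%) were downregulated, with a median log2 fold change of -0.63. By complex, the downregulated members were 19 of 37 complex I subunits (median -0.58), 3 of 8 complex I assembly factors (-0.44), 4 of 4 complex II subunits (-0.79), 4 of 8 complex III subunits (-0.67), 7 of 16 complex IV subunits (-0.65) and 10 of 17 complex V subunits (-0.68). The medians of complexes I to V thus spanned -0.79 to -0.58, and differences between complexes were not tested.

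**Figure D2:**
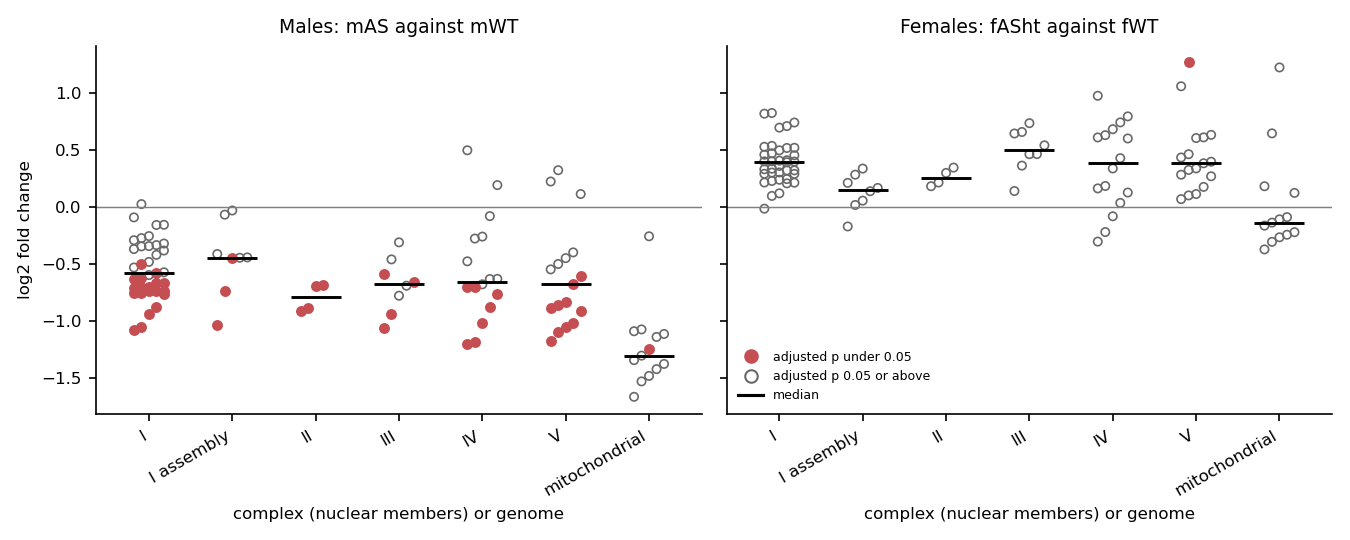
Log2 fold change of each tested member in males (left, mAS against mWT) and females (right, fASht against fWT), by complex for nuclear members and together for the 13 mitochondrial members. Filled points passed the test, open points did not, and lines are medians; the male medians lie between -1.30 (mitochondrial) and -0.44 (assembly factors), and only Atp5k is filled in females.

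In complex I, which takes electrons from NADH, the accessory subunit Ndufc2 (chromosome 7) had values of 1822, 1669 and 2298 in mWT and 1053, 735 and 936 in mAS. All mAS values were lower, and the gene fell by 1.08 ± 0.17 (SE) on the log2 scale (adjusted p = 0.00665), the largest decrease among the nuclear complex I subunits. Ndufa10, another accessory subunit, measured 3500, 2240 and 2922 in mWT and 1705, 1108 and 1339 in mAS and fell by 1.05 ± 0.21 (adjusted p = 0.0102), again without overlap. Ndufb8, a membrane arm subunit with the highest level per kilobase among nuclear complex I members, fell by 0.73 ± 0.15 (adjusted p = 0.0109), from 2272 to 2928 in mWT to 1319 to 1719 in mAS. Ndufv3, an accessory subunit of the NADH-oxidizing module, fell by 0.67 ± 0.16 (adjusted p = 0.0161). At the other end stood the accessory subunit Ndufa2, with 426, 435 and 548 in mWT and 524, 444 and 461 in mAS, which overlapped (log2 fold change 0.03 ± 0.14). Among the assembly factors, Ndufaf4 fell by 1.04 ± 0.24 (adjusted p = 0.0155) and Ndufaf1 by 0.74 ± 0.17 (adjusted p = 0.0164). Ndufaf3, with which Ndufaf4 forms a pair during assembly, had overlapping values of 187 to 219 in mWT and 187 to 210 in mAS (-0.03 ± 0.13).

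Complex II, which is succinate dehydrogenase and also an enzyme of the citric acid cycle, was downregulated in all its subunits. Sdha, the flavoprotein that oxidizes succinate, measured 10156, 7672 and 11857 in mWT and 6788, 4035 and 5344 in mAS, and fell by 0.88 ± 0.24 (adjusted p = 0.0247). Sdhb, the iron-sulfur subunit, fell by 0.91 ± 0.20 (adjusted p = 0.0133), from 2258 to 3212 in mWT to 1123 to 1795 in mAS. The membrane anchors Sdhc and Sdhd fell by 0.69 ± 0.16 (adjusted p = 0.0147) and 0.70 ± 0.21 (adjusted p = 0.0374). The groups did not overlap for any of the 4 genes.

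In complex III, which passes electrons from ubiquinol to cytochrome c, the 2 core proteins were downregulated. Uqcrc1 measured 4599, 3891 and 5302 in mWT and 2650, 1806 and 2163 in mAS and fell by 1.06 ± 0.18 (adjusted p = 0.00713), and Uqcrc2 fell by 0.94 ± 0.19 (adjusted p = 0.0102). All mAS values of both genes were below all mWT values. The small subunits Uqcrq and Uqcrh, the latter the hinge protein that contacts cytochrome c1, overlapped between groups, with log2 fold changes of -0.46 ± 0.20 and -0.31 ± 0.19. In complex IV, cytochrome c oxidase, Cox6a1 had the largest decrease of all nuclear members. It measured 6074, 4581 and 6204 in mWT and 2787, 2205 and 2295 in mAS, without overlap, and fell by 1.20 ± 0.16 (adjusted p = 0.00505). Cox7c fell by 1.19 ± 0.18 (adjusted p = 0.00609), Cox8a by 1.01 ± 0.18 (adjusted p = 0.00791) and Cox4i1 by 0.88 ± 0.18 (adjusted p = 0.0119).

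In complex V, Atp5b measured 30918, 26657 and 39296 in mWT and 20005, 11293 and 14745 in mAS and fell by 1.09 ± 0.27 (adjusted p = 0.0189). Atp5o, a subunit of the peripheral stalk, fell by 1.05 ± 0.18 (adjusted p = 0.00742). Atp5md, a small membrane subunit, measured 1229, 438 and 618 in mWT and 406, 222 and 293 in mAS, all lower, with mWT replicate 1 far above the other libraries, and fell by 1.17 ± 0.36 (adjusted p = 0.0395). In contrast, Atp5e, the epsilon subunit of the central stalk, had 609, 930 and 1179 in mWT and 1202, 1007 and 1094 in mAS (0.32 ± 0.22), and Atp5k, the e subunit of the membrane part, had 488, 503 and 725 against 721, 518 and 609 (0.11 ± 0.19). Both overlapped between the groups.

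Promoters of 4 nuclear members are shown because these genes mark the ends of the male and the female range. Cox6a1 had the largest decrease in mAS, Uqcrc1 the largest of complex III, and Atp5k and Cox7a2 the largest positive fold changes of complexes V and IV in fASht, of which only that of Atp5k passed the test. The sequences are RefSeq's on GRCm38.p6 and hold 250 bases before and 50 after the annotated gene start. Capitals mark matches, on either strand, to GCGCNNGCGC, the core bound by nuclear respiratory factor NRF1, and to CCGGAAG, a site of ETS factors such as GABPA.

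Cox6a1 (chr5:115348909-115349208, minus strand): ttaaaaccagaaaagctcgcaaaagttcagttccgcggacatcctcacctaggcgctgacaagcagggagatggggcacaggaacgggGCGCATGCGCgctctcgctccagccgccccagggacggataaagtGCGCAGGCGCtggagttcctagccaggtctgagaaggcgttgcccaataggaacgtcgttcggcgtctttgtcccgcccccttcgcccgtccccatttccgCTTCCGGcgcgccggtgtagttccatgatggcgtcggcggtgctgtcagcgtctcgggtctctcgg

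Uqcrc1 (chr9:108936398-108936697, plus strand): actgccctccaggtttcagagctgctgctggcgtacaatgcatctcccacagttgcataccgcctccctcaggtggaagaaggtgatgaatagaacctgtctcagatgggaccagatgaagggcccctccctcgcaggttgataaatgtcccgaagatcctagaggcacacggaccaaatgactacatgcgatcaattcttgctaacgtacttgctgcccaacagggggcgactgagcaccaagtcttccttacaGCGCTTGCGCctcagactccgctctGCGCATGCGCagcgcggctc

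Atp5k (chr5:108434350-108434649, minus strand): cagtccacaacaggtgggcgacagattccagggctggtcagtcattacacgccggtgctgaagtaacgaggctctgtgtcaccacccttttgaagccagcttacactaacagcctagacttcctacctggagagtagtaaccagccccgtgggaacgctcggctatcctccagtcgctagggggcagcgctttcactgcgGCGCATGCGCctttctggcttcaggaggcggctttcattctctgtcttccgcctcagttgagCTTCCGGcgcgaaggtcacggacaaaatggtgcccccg

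Cox7a2 (chr9:79759804-79760103, minus strand): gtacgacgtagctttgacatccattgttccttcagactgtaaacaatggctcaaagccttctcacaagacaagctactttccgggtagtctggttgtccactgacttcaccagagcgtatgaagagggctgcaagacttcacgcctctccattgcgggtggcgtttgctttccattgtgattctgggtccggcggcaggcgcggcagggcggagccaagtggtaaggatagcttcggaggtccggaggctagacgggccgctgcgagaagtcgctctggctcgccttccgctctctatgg

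Cox6a1 and Uqcrc1 each hold 2 matches to the NRF1 core, Atp5k holds 1, and Cox6a1 and Atp5k hold an ETS match, while Cox7a2 holds neither. Cox7c, Atp5md, Atp5b and Ndufc2, with Cox6a1 the largest nuclear decreases in males, hold no NRF1 match. A promoter was found for 76 of the 92 nuclear members. The NRF1 core was present in 20 of these (26.3%), against 6.43% of 27025 mouse promoters, the ETS letters in 18 (23.7% against 9.12%), and the YY1 letters AAGATGG in 11 (14.5% against 6.48%). The letters AAGGTCA, read by estrogen-related receptors, were in 8 (10.5% against 4.66%), CCAAT in 34 (44.7% against 37.9%) and TATAAA in 7 (9.21% against 14.2%). All letters were searched on both strands, and matches of different motifs may overlap. At least 1 of the NRF1, ETS and YY1 matches was present in 43 member promoters (56.6%) and in 19.8% of all promoters. The NRF1 core was in 12 of 39 members downregulated in males (30.8%) and in 8 of 36 that did not pass there (22.2%). For the ETS letters these shares were 25.6% and 22.2%, for YY1 15.4% and 13.9%, and for AAGGTCA 5.13% and 16.7%. Differences between these shares were not tested. These are counts of letters and not of bound sites.

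The mitochondrial mRNAs had a larger median fold change than the nuclear ones in mAS, and the 2 genomes were not tested against each other. Their log2 fold changes ran from -1.66 to -0.26 with a median of -1.30. In 8 of 13 all mAS values were below all mWT values, against 27.2% of all genes. Only mt-Nd3, a complex I subunit, passed the test, against 18.9% of all genes lower. It measured 28722, 21366 and 38032 in mWT and 15941, 7998 and 13741 in mAS and fell by 1.24 ± 0.32 (adjusted p = 0.0218). The largest fold change was that of mt-Nd2, also of complex I, with 580274, 175040 and 334718 in mWT and 130656, 68974 and 118424 in mAS (-1.66 ± 0.60, adjusted p = 0.0635). mt-Co1 measured 1941930, 721984 and 1308220 in mWT and 725997, 422544 and 620644 in mAS. The groups overlapped only where mAS replicate 1 slightly exceeded mWT replicate 2 (-1.09 ± 1.04, adjusted p = 0.431). mt-Cytb, the cytochrome b of complex III, had 988773, 345285 and 621828 against 299630, 181701 and 259370, without overlap (-1.30 ± 0.73, adjusted p = 0.193).

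In 7 further mitochondrial members mWT replicate 1 was the highest library and mAS replicate 2 the lowest. Of these, the complex I subunits mt-Nd1, mt-Nd4, mt-Nd5 and mt-Nd6 had log2 fold changes of -1.53, -1.38, -1.14 and -1.07, the complex IV subunits mt-Co2 and mt-Co3 of -1.34 and -1.42, and mt-Atp6, the proton channel subunit of complex V, of -1.48. The adjusted p of these ranged from 0.0601 for mt-Co3 to 0.164 for mt-Nd4. The count of mitochondrial members that passed depended on how the error of very abundant genes was set. limma let the prior spread follow the mean level, which gave mt-Co1 a standard error of 1.04 where its own libraries gave 0.475. With 1 prior spread for all levels, chosen after the data were seen, 8 of 13 were downregulated, beside 18.4% of all genes. Without mWT replicate 2 the count was also 8, beside 19.4%. It was 0 without mWT replicate 1 or 3, beside 10.1% and 9.09%, and 0 without mAS replicate 2 or 3, beside 11.4% and 9.66%. Quantile normalization took the median of the 13 from -1.30 to -0.075.

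In 2 places the mitochondrial members share bases. The neighbouring genes sit on 1 mRNA and are read in different frames, and the overlaps are shown with the shared bases in capitals (GENCODE M21 transcripts, GRCm38).

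mt-Atp8/mt-Atp6 (chrM:7910-7986, plus strand): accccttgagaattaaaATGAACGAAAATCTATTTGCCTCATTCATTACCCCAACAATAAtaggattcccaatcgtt

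mt-Nd4l/mt-Nd4 (chrM:10114-10226, plus strand): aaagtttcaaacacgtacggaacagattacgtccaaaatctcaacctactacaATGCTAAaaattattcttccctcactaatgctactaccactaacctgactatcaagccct

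mt-Atp8 and mt-Atp6, both of complex V, share 43 bases (chrM:7927-7969), and mt-Nd4l and mt-Nd4, both of complex I, share 7 (chrM:10167-10173). The members of a pair are given side by side, and the difference between their fold changes was not tested. In mAS versus mWT, mt-Nd4l measured 16778, 9143 and 24267 against 16639, 9196 and 14260, which overlapped (-0.26 ± 0.38), whereas all mAS values of mt-Nd4 were lower. The mt-Nd4l value was 1.79%, 3.60% and 5.06% of the mt-Nd4 value in mWT and 7.04%, 7.11% and 6.68% in mAS. In females it was 4.02% and 3.95% in fWT and 7.62%, 7.21% and 7.34% in fASht. The AS libraries of both sexes were above all WT libraries. The mt-Atp8 value was 10.3%, 5.20% and 6.59% of the mt-Atp6 value in mWT and 11.7%, 6.17% and 10.4% in mAS, which overlapped, and 5.11% and 6.54% in fWT and 16.5%, 12.9% and 14.6% in fASht, which did not. These ratios, and that of Atp5k to Atp5b, were chosen after their values were seen and carry no test. Each sets a shorter gene over a longer one, mt-Nd4l (297 nt) over mt-Nd4 (1378 nt) and mt-Atp8 (204 nt) over mt-Atp6 (681 nt). All genes under 500 nt had a median log2 fold change of 0.18 in males and 0.40 in females. The part of length in these ratios was not tested, and run and genotype cannot be told apart in fASht and fWT. How reads in a shared stretch were assigned is not given in the sources used here, nor is the strand setting, which matters for mt-Nd6 on the strand opposite to mt-Nd5.

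The heterozygous females stand for a milder form of the disease. In fASht versus fWT, 1 of 103 members was upregulated and 0 were downregulated (36 had an unadjusted p under 0.05), against 1.06% higher and 0.348% lower of the 15803 genes tested. Of all 15803 genes, 3449 had an unadjusted p under 0.05. The median log2 fold change was 0.33 over the members and -0.01 over all genes. The fASht values lay above both fWT values for 49 members (47.6%) and below both for 1, Ndufa4l2, against 19.1% and 21.3% of all genes. The nuclear median was 0.34, which became 0.10 without fWT replicate 1 and 0.62 without fWT replicate 2, with 0.39 for complex I subunits, 0.15 for assembly factors, 0.26 for complex II, 0.50 for complex III, 0.38 for complex IV and 0.38 for complex V. The mitochondrial median was -0.14, and it turned to 0.02 with equal library totals, 0.11 with quantile normalization and 0.33 without fWT replicate 2. Much rested on fWT, where replicate 1 was low and replicate 2 high for most members. Without fWT replicate 2, 67 members were upregulated, where 6.43% of all genes were higher. Without any 1 of the fASht libraries the count was 0, beside 0.026%, 0.013% and 0.215% of all genes without replicates 1, 2 and 3. With the repeated fWT library counted as a sample it was 24, beside 8.22% of all genes. With equal library totals the count was 17, beside 3.96% of all genes, and that scaling moved the median of all genes by 0.13.

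The member that passed was Atp5k, with 299 and 489 in fWT and 891, 904 and 1060 in fASht. All fASht values were higher, and the gene rose by 1.27 ± 0.21 on the log2 scale (adjusted p = 0.0445), while its adjusted p was 0.111 to 0.156 without any 1 of the fASht libraries. Among the other nuclear members, Atp5e had 630 and 1052 against 1646, 1642 and 1873 (1.06 ± 0.21, adjusted p = 0.0632), and Cox7a2, the widely expressed form of a small complex IV subunit, had 615 and 942 against 1450, 1439 and 1666 (0.98 ± 0.19, adjusted p = 0.0608). Neither overlapped and neither passed. Ndufa3, an accessory complex I subunit, had 431 and 633 against 913, 858 and 1057 (0.82 ± 0.18, adjusted p = 0.0749), and Uqcrh had 1013 and 1631 against 2082, 2009 and 2382 (0.74 ± 0.20, adjusted p = 0.109). The 5 nuclear members with the largest decreases in males had female log2 fold changes of 0.04 ± 0.24 for Cox6a1, 0.16 ± 0.20 for Cox7c, 0.60 ± 0.20 for Atp5md, 0.28 ± 0.24 for Atp5b and -0.01 ± 0.22 for Ndufc2, and none passed. The groups overlapped for these genes except Atp5md, which measured 276 and 449 in fWT and 551, 498 and 589 in fASht (adjusted p = 0.154). Of the complex II genes, Sdha had 6488 and 8821 in fWT and 8984, 9326 and 9638 in fASht, without overlap (0.30 ± 0.17, adjusted p = 0.343), and Sdhb, Sdhc and Sdhd overlapped.

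Among the mitochondrial members in females, only mt-Atp8 and mt-Nd4l had all fASht values above the fWT values, 2 of 13 against 19.1% of all genes. mt-Atp8 measured 4690 and 11073 in fWT and 18721, 13775 and 18594 in fASht (1.22 ± 0.36, adjusted p = 0.119), and mt-Nd4l 7944 and 14952 against 17058, 16524 and 17632 (0.65 ± 0.27, adjusted p = 0.224). The other 11 overlapped, with log2 fold changes of -0.37 for mt-Co2 to 0.18 for mt-Nd5.

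Whether the AS effect differed between the sexes was tested as a difference of the male and the female log2 fold changes over all 11 libraries. The AS males were Col4a5-/- and the AS females Col4a5+/-, so sex and genotype cannot be told apart in this difference. The male effect was lower than the female effect for 66 of 103 members and higher for 0, against 12.8% and 10.5% of 15492 genes. All 66 were nuclear, out of 90 tested, and 0 of 13 mitochondrial members passed in this test. An unadjusted p under 0.05 was found for 81 members, among them 80 nuclear ones, and for 6070 of all 15492 genes. The 66 comprised 30 of 37 complex I subunits, 2 of 8 assembly factors, 3 of 4 complex II, 8 of 8 complex III, 11 of 16 complex IV and 12 of 17 complex V subunits. Of the 90 nuclear members, 81 had a negative fold change in males and a positive one in females. The share of all genes with these signs was not counted. The only member that passed in females, Atp5k, had a positive fold change in both sexes. The female nuclear median was 0.10 without fWT replicate 1 and 0.62 without fWT replicate 2, so the female signs depended on single fWT libraries. The difference passed for 42 of the 47 nuclear members downregulated in males and for 24 others. This count rested on single libraries, and so did the count over all genes. It was 0 without mWT replicate 3, 0 without fWT replicate 1, 2 without mWT replicate 1 and 2 without fASht replicate 3, where 1.02%, 0%, 1.96% and 1.98% of all genes were lower. It was 19 to 27 without mAS replicate 2, mAS replicate 3, fASht replicate 1 or fASht replicate 2, where 6.01%, 5.05%, 5.87% and 3.34% of all genes were lower. It was 74 to 79 without mAS replicate 1, mWT replicate 2 or fWT replicate 2, where 16.2%, 17% and 16.3% were. Run and genotype cannot be told apart in females, and this holds for the difference too.

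The smallest adjusted p among the differences was that of Ndufv3 (-1.08 ± 0.22, adjusted p = 0.0209), with 1619, 1215 and 1557 in mWT, 1001, 776 and 958 in mAS, 827 and 1079 in fWT, and 1226, 1201 and 1351 in fASht. All mAS values were below mWT and all fASht values above fWT. Uqcrc2 had the same pattern, with 2570 and 3680 in fWT and 4021, 3697 and 4181 in fASht, where fASht replicate 2 exceeded fWT replicate 2 only slightly (-1.30 ± 0.27, adjusted p = 0.0213). Cox6b1, a complex IV subunit on the intermembrane side, measured 3293, 2349 and 3213 in mWT, 2087, 1545 and 1767 in mAS, 1329 and 2242 in fWT, and 2623, 2462 and 2866 in fASht (-1.31 ± 0.30, adjusted p = 0.0226). Its groups did not overlap in either sex. The largest difference among members that passed was that of Atp5md (-1.78 ± 0.49, adjusted p = 0.0320). The mitochondrial differences ran to -2.34 ± 0.93 for mt-Atp8 (adjusted p = 0.0866).

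**Figure D3:**
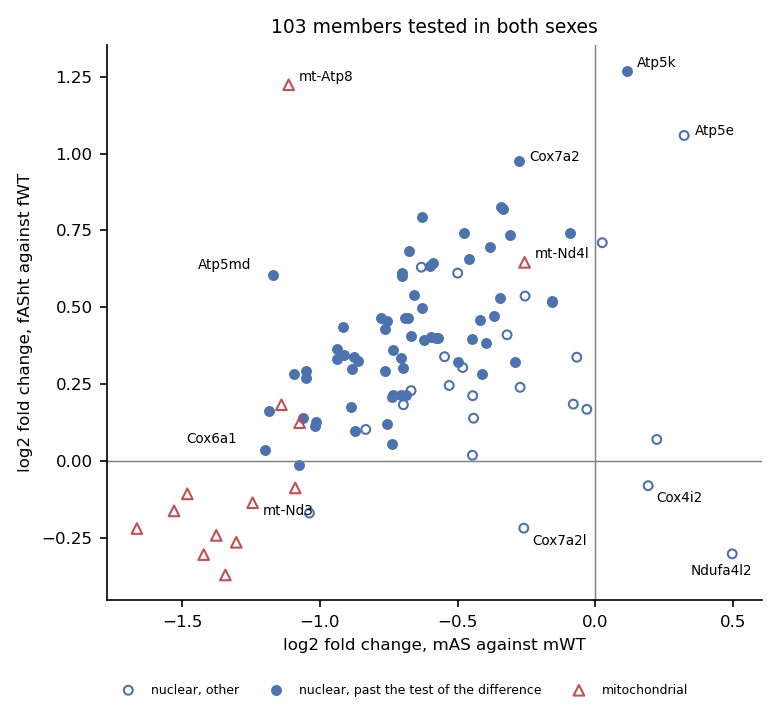
Log2 fold change in females (vertical, fASht against fWT) against that in males (horizontal, mAS against mWT) for the 103 members tested. Filled circles are the 66 nuclear members whose difference between sexes passed the test, open circles other nuclear members, triangles mitochondrial members; most nuclear members sit at the upper left and 9 of the 13 mitochondrial members at the lower left.

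Several members have paralogs that replace them in other tissues or oxygen conditions. Cox4i1 was far more abundant per kilobase than its hypoxia-linked paralog Cox4i2, with means over libraries of 7147 and 31.3 per kilobase. Cox4i2 measured 11.1, 20.8 and 15.8 in mWT and 17.0, 25.4 and 19.1 in mAS, which overlapped (0.19 ± 0.17). Ndufa4, a complex IV subunit despite its name, fell by 0.76 ± 0.19 (adjusted p = 0.0202), while its hypoxia-linked paralog Ndufa4l2 had 178, 226 and 94.5 in mWT and 198, 262 and 232 in mAS (0.50 ± 0.28, adjusted p = 0.192). The Ndufa4l2 value was 6.07%, 8.34% and 2.35% of the Ndufa4 value in mWT, 8.67%, 16.2% and 13.3% in mAS, 20.1% and 11.8% in fWT, and 11.2%, 7.60% and 8.97% in fASht. The mAS ratios were all above the mWT ratios and the fASht ratios all below the fWT ratios.

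Of the subunit 7a forms, Cox7a2 had -0.28 ± 0.18 in males, the muscle and heart form Cox7a1, at 19.8 to 71.3 in the male libraries, had -0.63 ± 0.31, and Cox7a2l, which links complexes III and IV, had -0.26 ± 0.11 (adjusted p = 0.0945). None passed in males. Cox6b1 fell by 0.70 ± 0.17 in males (adjusted p = 0.0194), whereas Cox6b2, a testis form, was at 15.9 to 27.7 in the male libraries and had -0.08 ± 0.17. Of the genes for the same c-ring protein, Atp5g1 fell by 0.86 ± 0.24 in males (adjusted p = 0.0265). Atp5g3, the most abundant per kilobase at 5906 against 1242 for Atp5g1 and 24.2 for Atp5g2, overlapped between groups (-0.50 ± 0.29, adjusted p = 0.211).

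The value of Atp5k was 1.58%, 1.89% and 1.84% of that of Atp5b in mWT and 3.61%, 4.59% and 4.13% in mAS, and 1.68% and 1.76% in fWT and 3.34%, 3.34% and 3.85% in fASht. The AS libraries of both sexes were thus above all WT libraries. Atp5b was downregulated in males, where Atp5k had 0.11 ± 0.19 (limma, adjusted p = 0.658). Atp5k was upregulated in females, where Atp5b had 0.28 ± 0.24 (limma, adjusted p = 0.531). This pair was chosen after its values were seen, and its ratio carries no test. The Atp5k mRNA has 371 nt and that of Atp5b 1916 nt. All genes under 500 nt had a median log2 fold change of 0.18 in males and 0.40 in females, and the part of length in this ratio was not tested.

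**Figure D4:**
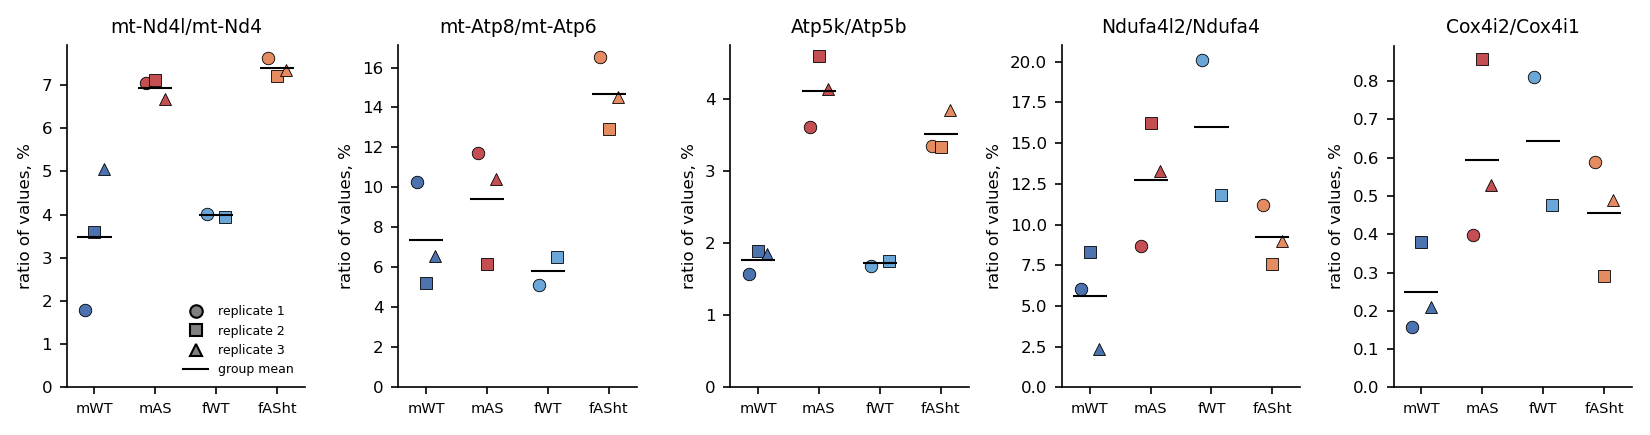
Ratio of the values of 2 genes within each library (vertical, %), by group, for mt-Nd4l to mt-Nd4, mt-Atp8 to mt-Atp6, Atp5k to Atp5b, Ndufa4l2 to Ndufa4 and Cox4i2 to Cox4i1. Points are libraries and lines group means; the mt-Nd4l ratio is at most 5.06% in WT and at least 6.68% in AS.

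Transcript length moved with these fold changes. Nuclear members have short mRNAs, with a median of 763 nt against 2687 nt over protein-coding genes. Among the 12 members under 500 nt the median log2 fold change was -0.42 in males and 0.63 in females, where all genes of that length had 0.18 and 0.40. Most members were longer. The 44 members of 500 to 1000 nt had -0.56 and 0.37, where all genes of that length had -0.21 and 0.12. For the 27 members of 1000 to 2000 nt these were -0.67 and 0.28, beside -0.15 and 0.0094. Among the 6 members of 2000 to 4000 nt it was -0.88 in males and 0.25 in females, where all genes of that length had -0.04 and -0.05. Across 89 nuclear members, which share these libraries and are not independent replicates, Spearman's rho between length and fold change was -0.30 in males and -0.41 in females, and over protein-coding genes it was 0.20 and -0.16. The part of length in the results was not tested.

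Other mitochondrial genes were counted from lists outside the symbol rule. Over all genes, 18.9% were lower and 16.6% higher in males, and 0.348% and 1.06% in females. In males, 10 of 15 electron carriers and genes of ubiquinone synthesis were downregulated (median -0.70) and 0 upregulated, among them Cycs, the somatic cytochrome c, which fell by 1.32 ± 0.27 (adjusted p = 0.0106), Coq8a, a kinase-like protein of ubiquinone synthesis (fell by 1.32 ± 0.32, adjusted p = 0.0181) and Pdss1 (fell by 1.14 ± 0.22, adjusted p = 0.00931). Of 20 genes of the citric acid cycle, pyruvate dehydrogenase and pyruvate carrier, 19 were downregulated (median -0.87), led by Mpc1, a subunit of the pyruvate carrier, at -1.22, with Idh3g and Idh3a, subunits of isocitrate dehydrogenase, at -1.21 and -1.09. Of 42 assembly factors outside the rule, 16 were downregulated (median -0.38), among them Atpif1, the ATP synthase inhibitor, at -1.04. Of 22 genes of the outer membrane, import and chaperones, 9 were downregulated (median -0.45), with the chaperonin pair Hspe1 and Hspd1 at -1.29 and -1.16. Of 78 mitochondrial ribosomal proteins, 36 were downregulated and 1 upregulated (median -0.41), and of 28 genes of mitochondrial transcription and RNA 9 were downregulated and 1 upregulated (median -0.30), among the former the elongation factor Tefm at -0.77. In females, 0 genes of these 6 lists passed in either direction in limma, with 6, 6, 5, 3, 9 and 3 at an unadjusted p under 0.05 in the order given, and the medians were 0.34, 0.30, 0.04, 0.15, 0.13 and 0.15. Of all 15803 genes tested in females, 3449 had an unadjusted p under 0.05. The difference between the sexes passed for 9 of 15, 19 of 20, 8 of 42, 8 of 22, 28 of 78 and 6 of 28. All of these were in the lower direction, where 12.8% of all genes passed.

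Of 13 nuclear regulators of mitochondrial genes, 3 were upregulated and 2 downregulated in males, where 16.6% and 18.9% of all genes were. Pprc1, a coactivator related to PGC-1, measured 274, 201 and 173 in mWT and 490, 536 and 414 in mAS and rose by 1.10 ± 0.19 (adjusted p = 0.00713), without overlap. Ppara, the lipid-sensing receptor that drives fatty acid oxidation, fell by 1.41 ± 0.40 (adjusted p = 0.0302). Esrrb, an estrogen-related receptor, had 467, 323 and 555 in mWT and 351, 108 and 151 in mAS and fell by 1.20 ± 0.38 (adjusted p = 0.0432), although mAS replicate 1 exceeded mWT replicate 2. In females Esrrb had 109 and 182 in fWT and 486, 395 and 348 in fASht and rose by 1.41 ± 0.23 (adjusted p = 0.0445), and its difference between the sexes was -2.61 ± 0.53 (adjusted p = 0.0204).

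Markers of tubular cells moved with the respiratory chain members in males. In females the medians were -0.19 for proximal tubule, -0.41 for collecting duct and 1.29 for thick limb and distal tubule markers, beside 0.33 over the members. Over all genes, 18.9% were lower and 16.6% higher in males, and 0.348% and 1.06% in females. For the difference between the sexes these shares were 12.8% and 10.5%. In males, 22 of 22 proximal tubule markers were downregulated (median -2.23), with Napsa at -2.92 and Cyp2e1 at -3.17, and so were 6 of 8 collecting duct markers (median -1.89) and 3 of 10 thick limb and distal tubule markers (median -0.82). Upregulated were 10 of 15 podocyte markers (median 0.97), with Nphs1, the slit diaphragm protein nephrin, at 1.50, 9 of 12 glomerular endothelial markers (median 1.01), with Tek at 1.38, and 2 of 10 mesangial and pericyte markers, of which 1 was downregulated. In females, 4 of 10 thick limb and distal tubule markers were upregulated (median 1.29), with Pvalb at 2.45, Slc12a3, the thiazide-sensitive cotransporter of the distal tubule, at 2.02 and Umod, the uromodulin of the thick limb, at 1.61. Their summed level was 30087 and 49958 in fWT and 90315 to 117263 in fASht. The 21 proximal tubule markers tested in females had a median of -0.19, with 1 downregulated (Cyp4b1), and 0 podocyte, endothelial, mesangial or collecting duct markers passed there (1, 3, 4 and 0 at an unadjusted p under 0.05). An unadjusted p under 0.05 was found in females for 3449 of all 15803 genes. The difference between the sexes passed in the lower direction for 20 of 21 proximal tubule and 7 of 10 thick limb and distal tubule markers, and in the higher direction for 10 of 15 podocyte and 8 of 12 endothelial markers. The mean log2 value of the nuclear members was 10.13, 9.92 and 10.32 in mWT, 9.78, 9.34 and 9.56 in mAS, 9.46 and 10.01 in fWT, and 10.06, 10.04 and 10.22 in fASht. The mAS replicate 2 library had the lowest mean of the nuclear members and also the lowest summed proximal tubule level. Other libraries did not keep this order. The proximal tubule sum was 190894 in fWT replicate 1 and 141479 in mAS replicate 1, while the nuclear mean was lower in fWT replicate 1. In fWT replicate 2 that sum was the highest of the female libraries (362012), with a nuclear mean below every fASht library. The part of these markers in the results on the members was not tested. Macrophage markers were low, and 1 of 8 tested was downregulated in males (C1qb, at 4.6 to 18.4).

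**Figure D5:**
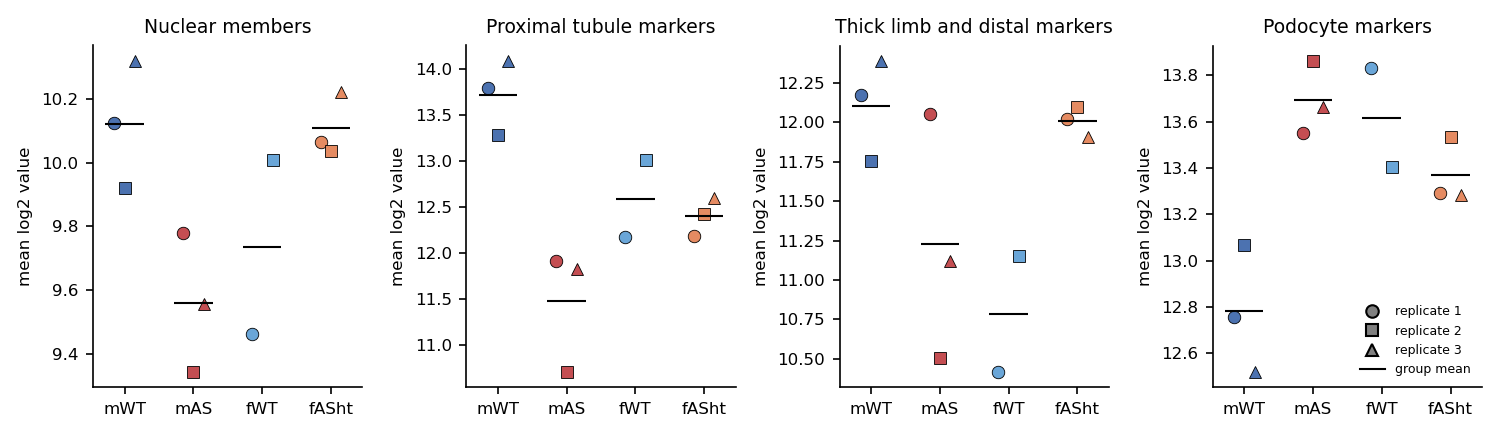
Mean log2 value per library (vertical) of the nuclear members and of the proximal tubule, thick limb and distal tubule, and podocyte markers, by group. Points are libraries and lines group means; the mAS points lie below the mWT points for the nuclear members and the proximal tubule markers and above them for the podocyte markers, and each panel has its own scale.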

How the data were processed

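The authors sequenced polyA RNA of isolated glomeruli as 150 bp read pairs with a stranded kit. Per the labels and methods, FastQC, cutadapt, STAR (mm10) and Partek were used from read quality to gene counts, with versions not given in the sources used here. The deposited signal values are gene counts that the authors scaled by TMM, in 1 table per sample (12 tables). The male and female tables may have been scaled apart, so tests were made within a sex or on the difference of the within-sex effects, and levels averaged over all libraries cross the sexes. Scaling acts on all genes at once, so a large mitochondrial share alters what a fold change is relative to. Values below 1e-06 were taken as 0. As scaled values carry no counting depth, precision comes from the spread between libraries, and no counting interval is given. Headers name no counting strand. Reads may be shared between members and 12 (male tables) or 13 (female tables) pseudogenes of them, so Ndufb4 and others with close copies are uncertain. For mitochondrial members the same holds for nuclear copies of mitochondrial DNA.

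Groups followed the sample labels. fWT replicate 3 equalled replicate 1 in every gene (relative tolerance 1e-06) and was dropped. Genes reaching 0.5 CPM in 3 or more of the compared libraries were tested with limma 3.58.1 (R 4.3.3) on log2(value + 1 CPM of the mean column total), a pseudocount of 17.6 in males and 17.8 in females, with a mean-variance trend, two-sided, Benjamini-Hochberg over all genes, threshold 0.05. Fold changes are on that scale, which understates those of low genes. The test was checked on simulated data for each comparison.

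Members and lists were chosen with earlier results of these data known. Named were all mitochondrial and Sdh members, of each complex the nuclear members with the largest, the smallest and the per-kilobase highest value, paralogs, members past the female test or leading the difference between sexes, and up to 3 genes per list. Lengths are those of principal transcripts in GENCODE M21 and promoters are RefSeq's. Mitochondrial overlaps were read from the transcripts.

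Alternatives were other pseudocounts (0.1 and 5 CPM), filters (none, 2 CPM) and scalings, both sexes in 1 fit, a replicate block, each library left out and the repeated library kept. Added after the data were seen were equal totals of genes off the mitochondrial genome and 1 prior spread at all levels. Summaries and figures used Python 3.11.15, numpy 2.4.6, pandas 2.3.3 and matplotlib 3.10.9.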

Additional observations from a re-analysis of the deposited data

Results flagged for a closer look

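The AS effect in males was below that in females for 66 of 103 members (limma on the difference, adjusted p under 0.05). By the same test 12.8% of all genes were lower. Without mWT replicate 3 the count was 0, beside 1.02% of all genes. It was 2 without mWT replicate 1 or fASht replicate 3, beside 1.96% and 1.98%. Run and genotype cannot be told apart in females. Sex and genotype cannot be told apart in the difference, which sets Col4a5-/- males against Col4a5+/- females. Of the 66 members, 25 are among the named members. All 25 values below are the male minus the female log2 fold change, and all are negative. In complex I they were Ndufa10 (-1.34), Ndufa3 (-1.17), Ndufaf1 (-0.79), Ndufb8 (-0.95), Ndufc2 (-1.06) and Ndufv3 (-1.08). In complex II they were Sdha (-1.18), Sdhb (-1.26) and Sdhc (-0.90), and in complex III Uqcrc1 (-1.20), Uqcrc2 (-1.30), Uqcrh (-1.05) and Uqcrq (-1.12). In complex IV they were Cox4i1 (-1.21), Cox6a1 (-1.23), Cox6b1 (-1.31), Cox7a2 (-1.25), Cox7c (-1.35), Cox8a (-1.14) and Ndufa4 (-1.19), and in complex V Atp5b (-1.38), Atp5g1 (-1.19), Atp5k (-1.16), Atp5md (-1.78) and Atp5o (-1.32). No group had enough libraries for a check of single outlying samples.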

How the results depend on the processing

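Counts of members past the test moved most with the libraries used and with the scaling. With 1 library left out at a time, the count lower in males was 18 to 63, the count of mitochondrial members lower in males 0 to 8, the count higher in females 0 to 67, and the counts for the difference 0 to 79 lower and 0 to 1 higher (Ndufa4l2, without mWT replicate 2). The median log2 fold change then ranged from -0.75 to -0.49 (nuclear, males), -1.70 to -0.94 (mitochondrial, males), 0.10 to 0.62 (nuclear, females) and -0.62 to 0.33 (mitochondrial, females). Without a filter, 31 members were lower in males, 0 of them mitochondrial, 0 were higher in females and 23 passed for the difference. Of all genes, 8.78%, 0.0194% and 2.67% were called in these directions. The 2 CPM filter gave 5 mitochondrial members in males and 0 members in females, beside 20.8% lower and 0.793% higher of all genes. Equal library totals gave 11 lower and 2 higher in males, 17 higher in females and 35 for the difference, and a nuclear median of -0.22 in males, where the median of all genes had moved by 0.35. Over all genes that scaling gave 5292 higher and 1420 lower in males, against 2638 and 3003. It gave 3.96% higher in females and 8.06% lower for the difference. Equal totals of genes off the mitochondrial genome gave 33 lower in males, 7 higher in females, 56 for the difference and a nuclear median of -0.40 in males (all genes moved by 0.20). Of all genes, 12.5%, 3.16% and 11.5% were then called in these directions. Quantile normalization gave a mitochondrial median of -0.075 in males. The 0.1 CPM pseudocount gave 2 mitochondrial members in males, both sexes in 1 fit 7 and 1 prior spread at all levels 8. Over all genes, 18.4%, 23.5% and 18.4% were lower there. With the repeated fWT library kept, 24 members were higher in females. Of the 48 members lower in males, 48 were also called with both sexes in 1 fit, 33 with equal totals off the mitochondrial genome and 11 with equal library totals. Where no cause is named it was not tested. Few libraries and scaled values limit what small differences can show.

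Same-numbered male libraries deviated from their group means with correlations of 0.05, 0.52 and 0.06. For mWT replicate 3 the highest correlation was with mAS replicate 1 (0.48). Deviations from a mean of 3 libraries depend on each other, so these few values cannot tell whether the numbers pair the samples. With the replicate block, 65 members were lower in males, 10 of them mitochondrial, beside 21.6% of all genes. In females 5 were higher, beside 4.08% of all genes, and fASht replicate 3 had a block of its own. The block also turned Cox6a1 -0.016 and Ndufaf1 -0.0018 in females.

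Signs of named members turned as follows, on the log2 scale. Equal library totals gave Cox6b2 0.15, Cox7a2 0.13, Cox7a2l 0.15, Ndufaf3 0.35, Uqcrh 0.10 and mt-Nd4l 0.16 in males and Cox4i2 0.011, Ndufc2 0.14, mt-Atp6 0.045, mt-Co1 0.065 and mt-Nd3 0.016 in females. Equal totals off the mitochondrial genome gave Cox6b2 0.051 and Ndufaf3 0.19 in males and Cox4i2 0.0077, Ndufc2 0.13, mt-Atp6 0.038, mt-Co1 0.057 and mt-Nd3 0.0091 in females. Quantile normalization gave Ndufaf3 0.046 and mt-Nd5 0.16 in males and Atp5g2 -0.13, Cox6b2 -0.018, Ndufc2 0.083, mt-Atp6 0.21, mt-Cytb 0.11, mt-Nd1 0.15, mt-Nd2 0.10 and mt-Nd4 0.062 in females. The repeated fWT library gave Ndufc2 0.12, mt-Atp6 0.040, mt-Co1 0.063 and mt-Nd3 0.072. With 1 library left out, the ranges of those that turned were Atp5k -0.0029 to 0.29, Cox6b2 -0.17 to 0.040, Ndufa2 -0.042 to 0.14, Ndufaf3 -0.085 to 0.019 and mt-Nd4l -0.64 to 0.067 in males, and Atp5b -0.041 to 0.61, Atp5g1 -0.12 to 0.77, Atp5g2 -0.032 to 0.17, Atp5o -0.11 to 0.65, Cox4i1 -0.050 to 0.73, Cox4i2 -0.19 to 0.11, Cox6a1 -0.40 to 0.48, Cox7c -0.16 to 0.48, Cox8a -0.25 to 0.50, Ndufaf1 -0.17 to 0.29, Ndufaf4 -0.44 to 0.096, Ndufb8 -0.091 to 0.52, Ndufc2 -0.41 to 0.38, Sdhb -0.045 to 0.74, Sdhc -0.18 to 0.61, Sdhd -0.14 to 0.51, Uqcrc1 -0.16 to 0.44, mt-Atp6 -0.55 to 0.33, mt-Co1 -0.54 to 0.37, mt-Co2 -0.87 to 0.13, mt-Co3 -0.82 to 0.20, mt-Cytb -0.73 to 0.20, mt-Nd1 -0.62 to 0.30, mt-Nd2 -0.70 to 0.26, mt-Nd3 -0.76 to 0.49, mt-Nd4 -0.71 to 0.23, mt-Nd5 -0.20 to 0.57 and mt-Nd6 -0.22 to 0.47 in females. None of these comparisons had passed the test, and the median-of-ratios scaling, the other pseudocounts and the 2 CPM filter turned no named member.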

Other observations

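Cox6a2, the muscle form of Cox6a1, was near the limit of detection. It measured 8.6, 6.9 and 8.5 in mWT and 3.9, 1.6 and 3.5 in mAS, all lower, was listed at 0 in fWT replicate 1 and at 1.1 in fWT replicate 2, and measured 8.3, 1.8 and 5.8 in fASht. It was below the minimum and was not tested. Among the pseudogenes of members, Ndufb4c, a processed copy on chromosome 15, had a mean of 1072 in the female tables, where Ndufb4 itself measured 187 to 359, and Atp5pb-ps had a mean of 545 there.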
